A study of Mus musculus with 3 samples.

Results

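Nphs1, Podxl, Ptpro, Magi2, Synpo, Cd2ap and Thsd7a are 7 of the 32285 genes counted in single cells of embryonic mouse kidney, and each encodes a protein of the podocyte foot process or of the slit diaphragm that spans the gap between foot processes. They were chosen by name, as rows of the deposited matrices. The questions asked of them were in what order they come up as podocytes form, where else in the kidney they are found, and how their levels stand in Enl-WT, Enl-T1 and TDI-11055-treated Enl-T1 kidneys. All 7 were found in all 3 libraries.

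The podocyte is the epithelial cell that wraps the glomerular capillary. Its interdigitating foot processes are joined by the slit diaphragm, an adhesion complex that filters plasma and signals to the actin cytoskeleton inside the foot process. Podocytes arise from nephron progenitors by way of the renal vesicle and the S-shaped body, and their genes are switched on under transcription factors such as WT1. Nephrin, the product of Nphs1, is the immunoglobulin-family protein that forms the diaphragm itself. Podocalyxin (Podxl) is a heavily charged sialomucin that keeps neighbouring processes apart, and it is also a surface protein of endothelium. PTPRO (GLEPP1) is a receptor tyrosine phosphatase of the apical foot process membrane. THSD7A is a membrane protein of the foot process and an autoantigen in membranous nephropathy. MAGI2 is a scaffold and CD2AP an adaptor under the membrane, both of which bind nephrin, and CD2AP is made in many epithelia. Synaptopodin (Synpo) organises actin in the foot process.

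The cells came from E15.5 kidneys on a C57BL/6 background, and all 3 groups carried 1 Wt1 GFPCre allele, a knock-in that inactivates that copy of Wt1 and drives Cre in nephron and stroma progenitors. The Enl-WT library was Enl +/+ and untreated. The Enl-T1 library was Enl flox-T1/+ and untreated; T1 is a 3-amino-acid insertion in the chromatin reader ENL (encoded by Mllt1), turned on by the Cre. The Enl-T1 TDI-11055 library had the Enl-T1 genotype, and its mothers were given TDI-11055, a small molecule that blocks the acyl-lysine pocket of ENL, at 100 mg/kg by mouth once a day from E10.5 to E14.5. Each group was 1 library of pooled kidneys with no map from cells to embryos, so there was no test between groups: intervals are 95% exact intervals (Poisson for levels, Clopper-Pearson for shares) that cover counting error only, and differences between embryos, libraries and genotypes cannot be told apart. TDI-11055-treated Enl-WT kidneys and vehicle-treated Enl-T1 kidneys were not analysed here, and expression of the T1 allele was not checked.

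Levels are UMIs (counted molecules) per 1000000 UMIs of the same cells, written CPM. Cells with 1000 to 6000 genes and at most 10% mitochondrial UMIs were kept: 5233 in the Enl-WT library, 4144 in Enl-T1 and 2754 in the TDI-11055 library. The libraries held 37221435 to 76619303 UMIs in all. Median depth per kept cell rose in the same order, from 5090 to 9391 to 16931.5 UMIs, so shares of cells with a UMI are given after each cell was thinned to 2000 UMIs. Between 5 and 8 kept barcodes were shared by each pair of libraries.

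Podocyte-like cells were found without the 7 genes, which were left out of the clustering. They formed 1 cluster of nephron cells with R3hdml and Cdkn1c among its leading genes. Its contrast with other cells is given as a description. It held 229 of the Enl-WT cells (4.38%, 3.84 to 4.97), 44 of the Enl-T1 cells (1.06%, 0.773 to 1.42) and 29 of the TDI-11055 cells (1.05%, 0.706 to 1.51). A marker gate in place of the cluster (at least 3 podocyte markers in a cell) gave shares of 7.89%, 5.00% and 3.52%, so the share depends on how a podocyte is defined. The cluster was named from a list of 13 podocyte markers, which were not left out of the clustering, so their levels are no separate support for the label. At least 4-fold above all other cells (on log2(CPM + 10)) were all 13 markers in the Enl-WT cells, where 2.52% of genes were. It was 12 of 13 in the TDI-11055 cells (2.23% of genes) and only 3 of 13 in the Enl-T1 cells (0.347%). Cdkn1c, a cell cycle inhibitor of postmitotic podocytes, was at 29790 CPM in Enl-WT cells, 714 in Enl-T1 and 8672 in TDI-11055 podocyte-like cells. In Enl-T1 it was at 294 CPM in the other nephron cells and at 697 in all other cells, a ratio of 1.02 (0.900 to 1.16) for the latter. Clic5, which encodes a foot process protein, was at 528, 5.78 and 79.6 CPM. The 44 Enl-T1 cells therefore carry the name of a cluster whose defining markers they express weakly. Markers of other cells also differed between these 3 sets: the stroma list summed to 1331, 179 and 496 CPM, the erythroid list to 1499, 2823 and 1747, the ureteric list to 131, 246 and 218, the endothelial list to 46.5, 37.6 and 32.8 and the proximal tubule list to 34.7, 14.4 and 7.03 CPM in Enl-WT, Enl-T1 and TDI-11055, and their part in the results was not tested. Of the 8 endothelial markers 5 had no UMI in the Enl-T1 set and 5 in the TDI-11055 set, Cdh5 and Tie1 among them in both, and the collecting duct channel Aqp2 had none in any of the 3. The proximal tubule transporter Slc34a1 had none either, while the stroma list was found with all 10 of its genes in Enl-WT cells, 9 in Enl-T1 and 6 in TDI-11055.

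In mouse genome GRCm38 (the mm10 build of the files), Nphs1 lies at chr7:30458315-30487223 on the plus strand, Podxl at chr6:31519488-31563981 on the minus strand, Ptpro at chr6:137252319-137463233 on the plus strand and Thsd7a at chr6:12311610-12749410 on the minus strand. Magi2 spans chr5:19227036-20704792 on the plus strand and Cd2ap chr17:42792951-42876665 on the minus strand. The 3 genes on chromosome 6 do not neighbour each other.

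Because 6 of the 7 genes turned out to move together, the 300 bases around their RefSeq start sites (250 before and 50 after; GRCm38.p6, 5′ to 3′ on the gene's strand) are shown for the 5 members that had a window, Magi2 by the first of its 2 start sites. Capitals mark matches, on either strand, to GNGTGGGNG, the core of the sequence bound by WT1.
Nphs1, chr7:30459808-30460107, plus strand: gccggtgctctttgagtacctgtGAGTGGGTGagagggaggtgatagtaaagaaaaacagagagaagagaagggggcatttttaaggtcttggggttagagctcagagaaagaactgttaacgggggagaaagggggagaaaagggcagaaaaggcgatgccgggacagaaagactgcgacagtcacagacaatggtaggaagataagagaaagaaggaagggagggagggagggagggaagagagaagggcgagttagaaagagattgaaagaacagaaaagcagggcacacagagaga
Ptpro, chr6:137252049-137252348, plus strand: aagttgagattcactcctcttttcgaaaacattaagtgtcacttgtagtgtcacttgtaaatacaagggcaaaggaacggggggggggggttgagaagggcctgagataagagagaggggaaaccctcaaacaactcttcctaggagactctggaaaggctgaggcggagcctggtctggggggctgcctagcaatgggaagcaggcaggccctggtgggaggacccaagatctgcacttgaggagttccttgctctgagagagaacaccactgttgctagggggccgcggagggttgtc
Thsd7a, chr6:12749204-12749503, minus strand: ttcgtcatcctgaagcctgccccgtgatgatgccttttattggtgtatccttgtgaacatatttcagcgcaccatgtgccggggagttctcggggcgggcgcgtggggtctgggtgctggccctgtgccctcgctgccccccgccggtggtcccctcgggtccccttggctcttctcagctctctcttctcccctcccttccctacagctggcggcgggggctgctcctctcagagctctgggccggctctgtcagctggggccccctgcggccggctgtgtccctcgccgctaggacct
Magi2, chr5:19226796-19227095, plus strand: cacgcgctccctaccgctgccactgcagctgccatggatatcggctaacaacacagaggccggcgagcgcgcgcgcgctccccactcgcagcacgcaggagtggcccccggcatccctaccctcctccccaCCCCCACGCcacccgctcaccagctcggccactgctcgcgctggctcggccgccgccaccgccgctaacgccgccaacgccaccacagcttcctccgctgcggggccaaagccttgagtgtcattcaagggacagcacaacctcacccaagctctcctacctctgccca
Cd2ap, chr17:42876375-42876674, minus strand: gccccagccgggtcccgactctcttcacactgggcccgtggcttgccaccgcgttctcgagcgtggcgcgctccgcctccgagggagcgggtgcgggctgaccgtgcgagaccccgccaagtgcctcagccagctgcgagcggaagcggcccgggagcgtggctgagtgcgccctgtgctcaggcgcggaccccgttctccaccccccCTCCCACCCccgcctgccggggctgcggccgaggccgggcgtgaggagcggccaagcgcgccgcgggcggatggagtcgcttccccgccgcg
The Nphs1, Magi2 and Cd2ap windows each held 1 match, while Ptpro and Thsd7a held none. The window of the second Magi2 start site, not shown, held none either. At least 1 match was found in 14.3% of all 32851 RefSeq promoter windows of this length. The forkhead sequence TGTTTAC, in 3.65% of windows, and the MAF half-site TGCTGAC, in 4.67%, occurred in none of the 5. The E-box CANNTG, found in 72.3% of all windows, reads the same on both strands and was counted once a site: Ptpro and Thsd7a held 3 each, Cd2ap 2, this Magi2 window 1 and the Nphs1 window none. The windows also differed in base composition, from 49.7% G and C in Nphs1 to 77.0% in Cd2ap, with a median of 52.7% over all windows. These are letter matches only, and the Nphs1 window lies inside the annotated gene span because the RefSeq transcript starts further downstream.

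In Enl-WT kidneys 6 of the 7 genes were strong podocyte genes and Cd2ap was a broad one. Set against all other Enl-WT cells, the podocyte-like level was 328-fold higher for Ptpro, 124-fold for Magi2, 111-fold for Podxl, 94.5-fold for Thsd7a, 66.4-fold for Synpo and 43.5-fold for Nphs1, but 2.27-fold for Cd2ap. On the log2(CPM + 10) scale, at least 4-fold higher were 6 of 7 members, where 2.52% of the 9272 genes tested reached that fold. Ordered by this ratio, Podxl, Ptpro, Thsd7a and Magi2 stood among the leading 7 genes (ranks 3, 4, 6 and 7 on the log2(CPM + 10) scale), Synpo and Nphs1 stood at 15 and 16, and Cd2ap at 567. In Enl-T1 kidneys only 2 of the 7 passed the level of 10 CPM that this count needs, and neither reached 4-fold on that scale (0.347% of genes did). The plain ratio for Ptpro was still 17.6 there (5.39 to 45.01), on 5 UMIs in podocyte-like cells. In TDI-11055-treated kidneys all 7 passed the level and 6 reached 4-fold (2.23%).

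The surface and junction genes were far lower in the Enl-T1 podocyte-like cells. Nphs1 was at 479 CPM in Enl-WT (814 UMIs), at 17.3 in Enl-T1 (6 UMIs) and at 119 in TDI-11055 cells (51 UMIs), and the Enl-T1 level was 27.6-fold below Enl-WT (12.6 to 75.5). Podxl was at 2917 CPM (4959 UMIs) in Enl-WT and at 426 CPM (182 UMIs) in TDI-11055 cells. No Podxl UMI was found in the 44 Enl-T1 cells, which at a limit of 3 UMIs allows up to 8.67 CPM, a level at least 336-fold lower than in Enl-WT. The podocalyxin gene thus separated the 3 sets without overlap of their counting intervals, with Enl-WT highest and Enl-T1 at zero.

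Ptpro was at 875 CPM (1488 UMIs) in Enl-WT, at 14.4 (5 UMIs) in Enl-T1 and at 187 (80 UMIs) in TDI-11055 cells, and its Enl-T1 level was 60.6-fold below that of Enl-WT (25.9 to 187). Thsd7a was at 1733 CPM (2946 UMIs) in Enl-WT and at 185 (79 UMIs) in TDI-11055 cells, and it had no UMI in Enl-T1, at least 199.9-fold lower by the same limit. Both membrane proteins therefore kept the order Enl-WT, TDI-11055, Enl-T1.

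Among the genes that act under the membrane, Magi2 was at 831 CPM (1413 UMIs) in Enl-WT, at 8.67 (3 UMIs) in Enl-T1 and at 70.3 (30 UMIs) in TDI-11055 cells. With 3 UMIs the Enl-T1 level of this scaffold was 95.9-fold lower with an interval of 32.7 to 465. Synpo was at 357 CPM (607 UMIs), 2.89 (1 UMI) and 60.9 (26 UMIs), and the ratio resting on that single UMI, 124-fold lower, had an interval from 22.1 to 4888. Cd2ap moved least. The adaptor gene was at 883 CPM (1501 UMIs) in Enl-WT, 211 (73 UMIs) in Enl-T1 and 283 (121 UMIs) in TDI-11055 cells, a 4.19-fold difference between Enl-WT and Enl-T1 (3.31 to 5.37).

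**Figure D1:**
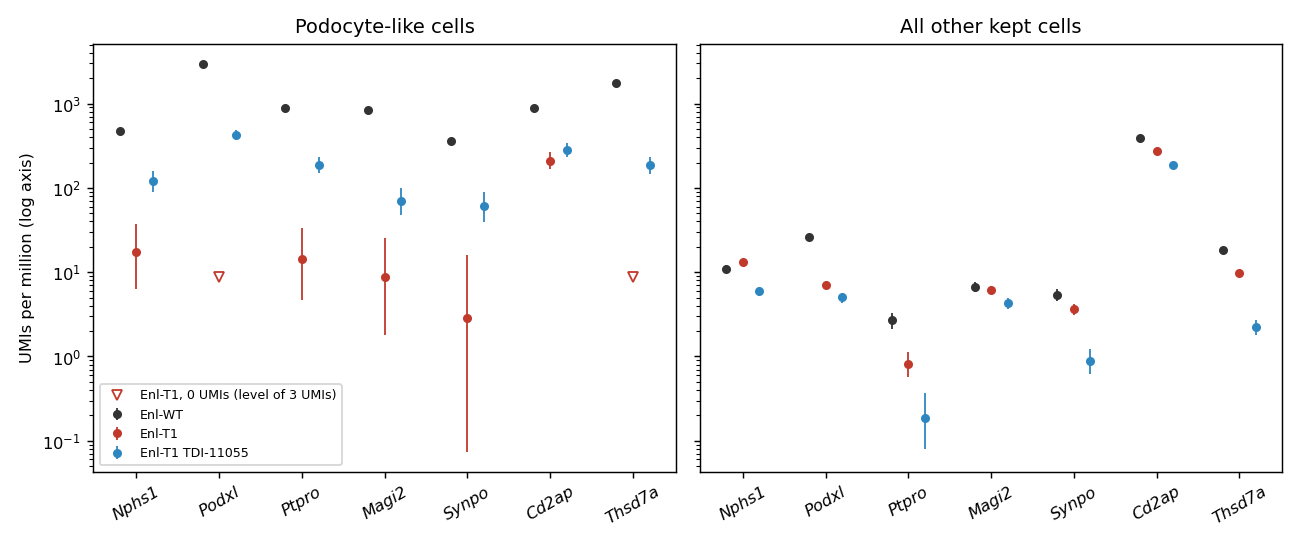
Level of each of the 7 genes in podocyte-like cells (left) and in all other kept cells (right) of each library, in CPM on a log axis, with 95% Poisson intervals; an open triangle marks a gene with 0 UMIs, placed at the level of 3 UMIs. In podocyte-like cells every gene is highest in Enl-WT, Podxl and Thsd7a have no UMI in Enl-T1, and Cd2ap goes from 883 to 211 to 283 CPM.

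At least 1.5-fold lower in podocyte-like cells of Enl-T1 relative to Enl-WT (on the log2(CPM + 10) scale) were 7 of 7 members, against 30.8% of 8554 genes, and their median log2 ratio was -5.18 where the median of all genes was -0.21. In TDI-11055 over Enl-T1, 6 of 7 members were at least 1.5-fold higher, against 20.9% of genes, with a median of 2.46 against 0.11. Podxl was at least 49.2-fold and Thsd7a at least 21.3-fold higher after TDI-11055, Ptpro was 13.0-fold higher (5.33 to 41.0), Magi2 8.10-fold (2.52 to 41.5) and Nphs1 6.89-fold (2.96 to 19.6), and Synpo, with 1 UMI in Enl-T1, 21.1-fold (3.46 to 864). For Cd2ap the ratio was 1.34 with an interval of 0.996 to 1.82, which includes no change. All 7 stayed at least 1.5-fold below Enl-WT after the treatment (20.5% of genes did), from 3.12-fold lower for Cd2ap to 11.8-fold lower for Magi2. With cells compared only within a pseudotime bin the median log2 ratio was -3.65 (Enl-T1 over Enl-WT) and 0.57 (TDI-11055 over Enl-T1), and with the marker gate the latter was 1.04. These comparisons share libraries and are not independent of each other. The 7 genes are long, with exons adding up to 5488 to 15864 bases and all above the median of 4798.5, and across genes the log2 ratio of Enl-T1 over Enl-WT in these cells had a Spearman correlation of -0.33 with exonic length (0.03 for TDI-11055 over Enl-T1), whose part in the result was not tested.

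The picture per cell was the same in outline. In Enl-WT, 195 of 229 podocyte-like cells had a Podxl UMI, and 1 cell held 147 of them. In TDI-11055 kidneys 18 of 29 had one, and among Enl-T1 cells 0 of 44. After thinning to 2000 UMIs, Podxl was found in 81.1% of Enl-WT podocyte-like cells, in none of the 44 Enl-T1 cells and in 34.5% of TDI-11055 cells, and Nphs1 in 49.5%, 2.27% and 17.2%. Cd2ap was again the exception, with a UMI in 30 of 44 Enl-T1 cells before thinning.

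A count that uses no cluster gave the same ordering of Enl-WT against the other libraries. Cells with UMIs of at least 3 of the 6 members other than Cd2ap, at 2000 UMIs per cell, numbered 167 of 5137 in Enl-WT kidneys (3.25%, 2.78 to 3.77). They numbered 0 of 4129 in Enl-T1 kidneys, which allows a share of up to 0.0893%, and 6 of 2734 in TDI-11055-treated kidneys (0.219%, 0.0806 to 0.477). Of the 167 cells 154 were podocyte-like, and so were all 6 in the treated kidneys. Without thinning there were 18 such cells in Enl-T1, of which 11 were endothelial-like, 6 stroma-like and none podocyte-like.

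**Figure D2:**
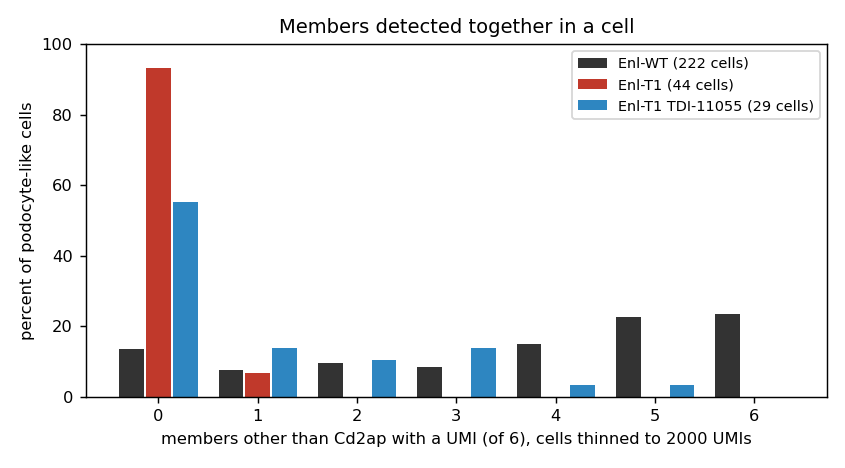
Share of podocyte-like cells that hold UMIs of 0 to 6 of the 6 members other than Cd2ap, after each cell was thinned to 2000 UMIs, for the 3 libraries. At least 3 members were found in 69.4% of Enl-WT, none of the Enl-T1 and 20.7% of the TDI-11055 podocyte-like cells.

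Before the podocyte-like stage the 6 restricted genes were nearly silent in Enl-WT kidneys. In NP1-like and NP2-like nephron progenitors (the latter led by Bmper and Wnt4) and in intermediate-like cells (led by Lhx1 and Osr2), they lay between 0 and 20.1 CPM, with Nphs1 in NP2-like cells the highest. The NP1-like class joined 4 clusters, 1 led by Rspo3 and Cited1 (327 Enl-WT cells) and 3 led by the cell cycle genes Rrm2, Ube2c and Ccnb2 (195, 134 and 51), none of which had an NP1 marker among its 10 leading genes. Cd2ap stood at 224 to 247 CPM in the same stages, so its adaptor transcript was present well before the diaphragm genes. Podocyte-like cells of the 3 libraries were then ordered by diffusion pseudotime, computed without the 7 genes, and cut into 4 bins, which held 54, 39, 68 and 68 Enl-WT cells. Along the bins Cdkn1c went from 2766 to 40876 CPM and Lhx1, a gene of the early nephron, from 258 to 31.4 CPM.

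All 7 genes rose along the bins in Enl-WT cells, but not by the same factor. Ptpro was at 131, 571, 916 and 1155 CPM in bins 1 to 4, and Podxl at 267, 1207, 2950 and 4170 CPM. Thsd7a was at 76.8, 420, 1613 and 2679 CPM, and Magi2 at 36.2, 221, 754 and 1291 CPM. These last genes therefore had more of their rise still to come in bin 2 than Ptpro did. Nphs1 was at 31.6, 150, 521 and 678 CPM, Synpo at 13.6, 190, 374 and 495 CPM, and Cd2ap at 407, 632, 930 and 1065 CPM. From bin 1 to bin 4 the level rose 2.62-fold for Cd2ap, 8.81-fold for Ptpro (6.09 to 13.2), 15.6-fold for Podxl, 21.4-fold for Nphs1 (10.3 to 53.6), 34.9-fold for Thsd7a, 35.7-fold for Magi2 and, from 3 UMIs in bin 1, 36.5-fold for Synpo.

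The order of onset was read in bin 2, as the share of the bin 4 level reached there. Cd2ap had reached 59.4% (49.4 to 71.0) and Ptpro 49.4% (40.7 to 59.5), which overlap. Synpo had reached 38.4% (27.3 to 52.8) and Podxl 29.0% (25.5 to 32.8), and these neighbours overlap as well, while Podxl and Ptpro do not. Nphs1 stood at 22.2% (15.2 to 31.4), Magi2 at 17.1% (12.6 to 22.8) and Thsd7a at 15.7% (12.6 to 19.3), 3 values whose intervals overlap each other. Of these, Magi2 and Thsd7a lay below Podxl without overlap, and Nphs1 did not. By a fixed rule (the earliest bin with at least 25% of the highest level, above ureteric epithelium) Podxl, Ptpro and Synpo started in bin 2 and Nphs1, Magi2, Thsd7a and Cd2ap in bin 3, the last because its ureteric level is high. This split into earlier and later members was lost, with no member before Nphs1, under 7 of the 10 alternative settings tried. Under the marker gate only Ptpro and Synpo stayed before Nphs1. The split was kept in full only with doublets removed and at nephron resolution 0.4, where the bin 2 and bin 4 counts equalled the main ones. The order is therefore weakly held. The shares in bin 2, which rest on the same bins, moved too. With a mitochondrial limit of 5% Nphs1 had reached 55.0% and Ptpro 56.5%. Thsd7a lay below Ptpro without overlap in 9 of the 10 settings with 4 bins, Podxl and Magi2 in 7 and Nphs1 in 5. These 10 include the main setting and nephron resolution 0.4, which repeats its counts, so they are not separate pieces of evidence.

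Counted per Ptpro UMI in the same cells, Thsd7a went from 0.586 to 0.736 to 1.76 to 2.32 UMIs over the 4 bins, a 3.96-fold rise (2.09 to 7.71). Over 11 settings, this one included, the rise lay between 1.66-fold and 8.91-fold, and its interval stayed above 1 in 9, the exceptions being the marker gate and the marker sum in place of pseudotime. Nephron resolution 0.4, also among the 11, had the same bin 2 and bin 4 counts as the main setting. Magi2 went from 0.276 to 1.12 (rising in 8 of 11) and Podxl from 2.03 to 3.61 (8 of 11). Cd2ap per Ptpro UMI went the other way, from 3.10 to 0.922, a fall found in 10 of 11 settings. Nphs1 rose from 0.241 to 0.587 in the main setting, and rose in 7 of 11 and fell in 1. Median depth per cell also went up along the bins, from 3569 to 4189, 6006 and 10311.5 UMIs, which moves with every rise in CPM and whose part was not tested; ratios within the same cells share that depth.

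**Figure D3:**
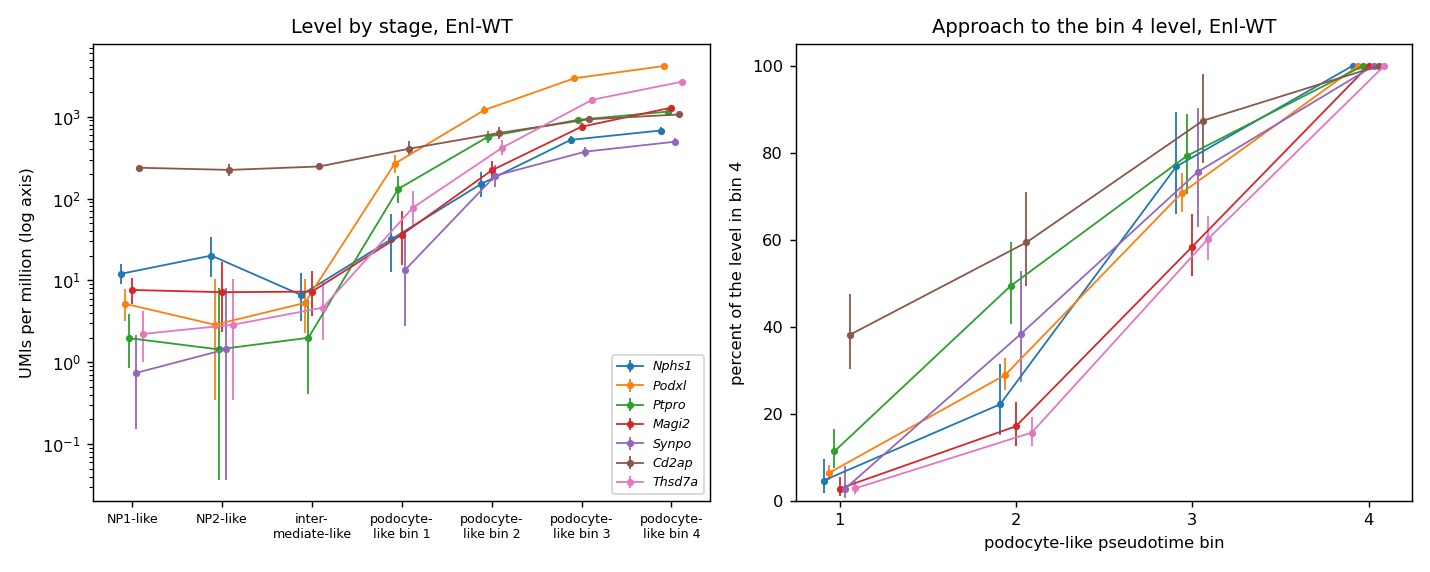
Level of each gene in Enl-WT cells from NP1-like progenitors to podocyte-like bin 4, in CPM on a log axis (left; a level of 0 is not drawn), and as a percentage of its bin 4 level along the 4 podocyte-like bins (right), with 95% intervals. In bin 2, Cd2ap and Ptpro have reached 59.4% and 49.4% of their bin 4 level, Magi2 and Thsd7a 17.1% and 15.7%.

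Cells of the same pseudotime bin were also set side by side. In bins 2 and 3 the interval of the Enl-T1 over Enl-WT ratio lay below 1 for all 7 members. In bin 1 it did so for Podxl, Ptpro, Cd2ap and Thsd7a. It included no change in bin 1 for Nphs1 (0.429, 0.0434 to 2.25), Magi2 (0.188, 0.00423 to 1.399) and Synpo (0, 0 to 3.63). The 44 Enl-T1 podocyte-like cells fell into bins 1 to 4 as 16, 23, 5 and 0, and the 29 TDI-11055 cells as 5, 14, 2 and 8. In bin 2 Podxl was at 1207 CPM in Enl-WT, had no UMI in Enl-T1 and was at 137 CPM (28 UMIs) after TDI-11055. Ptpro in bin 2 was at 571, 17.7 and 53.9 CPM, with 3 UMIs in Enl-T1. Cd2ap in bin 2 was at 632, 207 and 191 CPM. Only Podxl separated Enl-T1 from TDI-11055 in bin 2, with a lower limit of 5.88 for the ratio of TDI-11055 over Enl-T1. The interval of this ratio included no change for Ptpro (3.03, 0.802 to 16.9) and Synpo (4.97, 0.602 to 228). It also did for Nphs1 (0.552, 0.0461 to 4.82), Magi2 (2 UMIs in each) and Cd2ap. Thsd7a had 1 UMI after TDI-11055 and none in Enl-T1 in that bin. Cdkn1c, a podocyte marker, was itself at 13601, 781 and 1625 CPM there, so cells of 1 bin are not alike across libraries.

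For 6 of the 7 members most UMIs after TDI-11055 came from the 8 cells of bin 4, a bin with no Enl-T1 cell. They held 127 of the 182 Podxl UMIs, 71 of 79 for Thsd7a, 63 of 80 for Ptpro, 38 of 51 for Nphs1, 25 of 30 for Magi2 and 16 of 26 for Synpo, but 55 of 121 for Cd2ap. Even there each member was below Enl-WT bin 4: Nphs1 at 294 against 678 CPM (a ratio of 0.433), Ptpro at 487 against 1155 (0.421), Cd2ap at 425 against 1065 (0.399), Synpo at 124 against 495 (0.25), Podxl at 981 against 4170 (0.235), Thsd7a at 548 against 2679 (0.205) and Magi2 at 193 against 1291 (0.150). Of the podocyte markers, Cdkn1c in those 8 cells was at 20267 against 40876 CPM and Clic5 at 209 against 737 CPM, while Wt1 was at 1568 against 1196 CPM.

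Outside podocytes the members parted ways. In Enl-WT kidneys podocyte-like cells held 94.8% of all Ptpro UMIs, 87.4% for Magi2, 86.2% for Podxl, 84.1% for Thsd7a, 78.8% for Synpo and 70.9% for Nphs1, but 11.3% for Cd2ap, of which 53.7% lay in ureteric epithelium. In Enl-T1 kidneys 90.7% of Podxl UMIs were endothelial, while 73.2% of Ptpro UMIs (30 of 41) and 68.8% of Synpo UMIs (110 of 160) were in stroma-like cells. These are shares of few UMIs: Ptpro had 1569 in Enl-WT kidneys, 14 of them in stroma-like cells. Stroma-like cells were 16.6% of kept Enl-WT cells and 33.8% of kept Enl-T1 cells, so the shares do not show a higher stromal level. After TDI-11055, 90.9% of Ptpro UMIs (80 of 88) were in podocyte-like cells, and Podxl was split, with 45.8% in podocyte-like and 48.1% in endothelial-like cells.

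Podxl in endothelial-like cells was at 187 CPM in Enl-WT kidneys, 88.2 in Enl-T1 and 107 in TDI-11055 kidneys. At 2000 UMIs per cell it was found in 31.3%, 12.8% and 10.3% of endothelial-like cells, and in Enl-WT this stood against 1.34% of ureteric cells of the same library. Endothelium also held Thsd7a, at 93.4, 43.8 and 25.7 CPM, and Synpo, at 23.5, 5.63 and 5.03 CPM. In the Enl-T1 endothelium Podxl was thus lower than in Enl-WT, by a ratio of 0.471 (0.406 to 0.544), Thsd7a by 0.469 and Synpo by 0.239, all far smaller falls than in podocyte-like cells, though the difference between the cell types was not tested. From Enl-T1 to TDI-11055 the endothelial Podxl ratio was 1.21 (1.00 to 1.46) and that of Thsd7a 0.587.

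Stroma held Thsd7a at 26.6, 14.6 and 7.18 CPM and Synpo at 10.99, 9.88 and 4.31 CPM in Enl-WT, Enl-T1 and TDI-11055. Within the Enl-WT stroma, Thsd7a was at 43.1 CPM in the cluster led by Foxd1, a stromal progenitor gene, and Synpo at 24.4 CPM in the cluster led by Ren1, the renin gene. Both were the highest stromal values, but their intervals overlapped those of the small cluster led by Lum (31.6 and 15.8 CPM). The stroma-like class was made up of these clusters in different shares: the Foxd1 cluster held 389 Enl-WT, 521 Enl-T1 and 181 TDI-11055 cells, and 1 led by Nts held 234, 574 and 53. Between Enl-WT and Enl-T1, Thsd7a in the Foxd1 cluster went from 43.1 to 23.7 CPM, whereas Synpo went from 24.4 to 13.5 CPM in the Ren1 cluster and from 6.78 to 11.9 CPM in the Nts cluster, both with overlapping intervals. Magi2 in stroma was at 8.06, 11.8 and 7.18 CPM. Ptpro was below 4 CPM in every other named Enl-WT class of at least 50 cells, the tightest restriction of the 7.

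Cd2ap was an epithelial gene as much as a podocyte gene. Ureteric epithelium had it at 638 CPM in Enl-WT kidneys, 526 in Enl-T1 and 276 in TDI-11055 kidneys, a ratio of 0.824 between the mutant and Enl-WT, then of 0.526 between the treated and untreated mutant. The clusters of this class were held in different numbers by the libraries, and within 4 of them the level was lower in Enl-T1 by more than in the class as a whole. It went from 1007 to 759 CPM in the cluster led by Fxyd4 (509 and 531 cells), from 895 to 590 in that led by Upk1b (60 and 117 cells), from 504 to 325 in that led by Calb1 and Mia (367 and 189) and from 399 to 260 in that led by Rprm (478 and 177). The Enl-WT order of classes was podocyte-like at 883, ureteric at 638, distal tubule or loop of Henle-like at 328 and proximal tubule-like at 279, down to stroma-like at 159 CPM. Between them intermediate-like (247), NP1-like (238), endothelial-like (237) and NP2-like cells (224 CPM) had overlapping intervals.

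Nphs1 showed a low level in every other named class of at least 50 cells, from 2.80 CPM in TDI-11055 endothelium to 20.6 CPM in Enl-T1 NP2-like cells. In ureteric epithelium it was 9.11, 11.6 and 5.37 CPM in Enl-WT, Enl-T1 and TDI-11055, where Podxl was at 7.23, 0.583 and 0.474 CPM. The 17.3 CPM of Nphs1 in Enl-T1 podocyte-like cells (6.36 to 37.7) overlaps the 13.2 CPM of all other Enl-T1 cells, so no podocyte Nphs1 was detectable there at this depth.

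**Figure D4:**
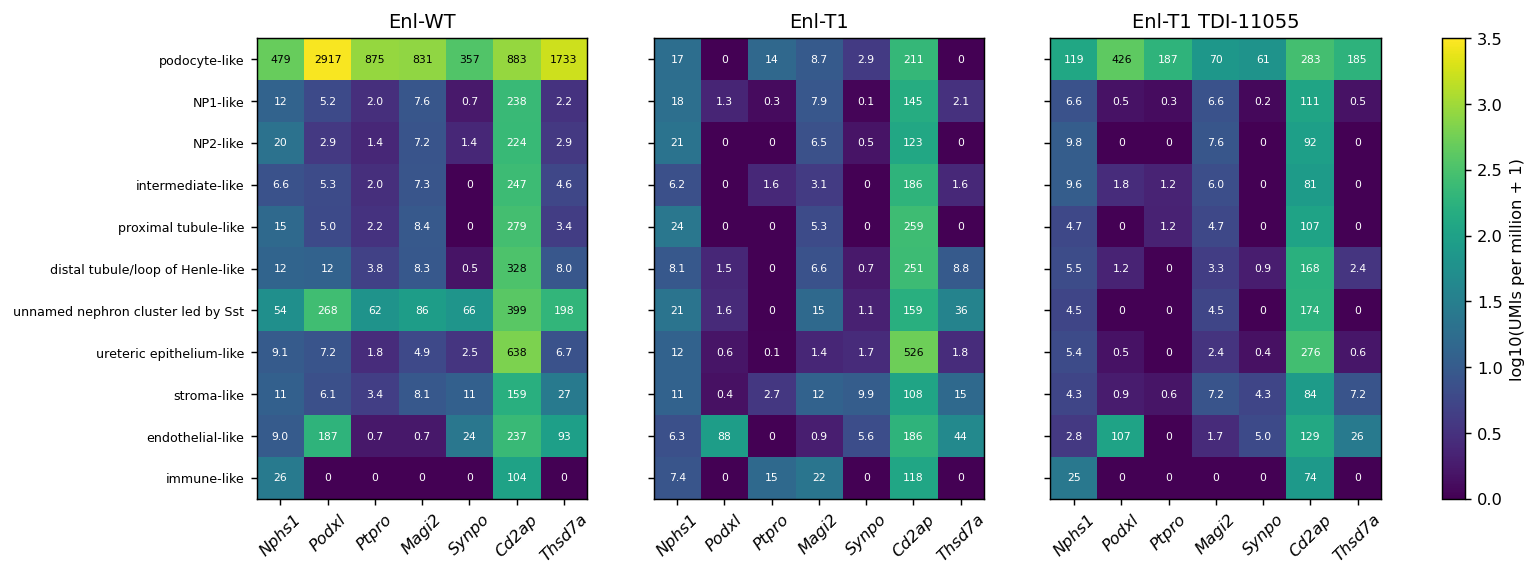
Level of the 7 genes in each cell class of each library(1 unnamed nephron cluster is not drawn); the printed value is in CPM and the colour is log10(CPM + 1). Podxl and Thsd7a are at 2917 and 1733 CPM in Enl-WT podocyte-like cells and keep a lower level in endothelium, Cd2ap reaches 638 CPM in Enl-WT ureteric epithelium, and in Enl-T1 podocyte-like cells only Cd2ap is above 20 CPM.

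Summed over all kept cells, the members were lower in both mutant libraries. In this sum the number of podocytes, their RNA per cell and the shares and levels of other cells cannot be told apart. Most of it lay outside podocyte-like cells in Enl-T1. They held 0 of 311 Podxl UMIs, 0 of 426 for Thsd7a, 1 of 160 for Synpo and 3 of 273 for Magi2. For Nphs1 it was 6 of 583, for Ptpro 5 of 41 and for Cd2ap 73 of 12199. Podxl went from 180 CPM in Enl-WT to 7.03 in Enl-T1 and 9.17 in TDI-11055, Ptpro from 49.0 to 0.927 and 2.03, Thsd7a from 109 to 9.64 and 4.04, Magi2 from 50.5 to 6.17 and 4.94, Synpo from 24.0 to 3.62 and 1.48, Nphs1 from 35.8 to 13.2 and 7.02, and Cd2ap from 416 to 276 and 186 CPM. Of the 6 members that passed the mean level of 10 CPM, 5 were at least 1.5-fold lower in Enl-T1 on the log2(CPM + 10) scale (16.8% of 9032 genes, with 3.74% at least 1.5-fold higher), and the median log2 ratio was -2.17 where that of all genes was -0.24. In TDI-11055 over Enl-T1 none of the 6 passed 1.5-fold in either direction on that scale (4.86% of genes were lower and 2.05% higher). Against Enl-WT all 6 were lower (25.5% of genes were lower and 3.23% higher). The plain ratios of TDI-11055 over Enl-T1, which 10 CPM does not damp, were above 1 for Ptpro (2.19, 1.496 to 3.26) and Podxl (1.30, 1.12 to 1.52). They were below 1 for Magi2 (0.8003, 0.666 to 0.961), Cd2ap (0.673, 0.654 to 0.692), Nphs1 (0.532, 0.462 to 0.613), Thsd7a (0.419, 0.350 to 0.501) and Synpo (0.408, 0.301 to 0.549). Exonic length had a Spearman correlation of -0.52 with these log2 ratios across genes when Enl-T1 was set over Enl-WT and of -0.39 when TDI-11055 was set over Enl-T1.

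The wider foot process program moved in the same directions, by less. A list of 35 further genes of the slit diaphragm, its actin and adhesion partners and the glomerular basement membrane was described in podocyte-like cells, where 32 passed the level filter. In Enl-T1 against Enl-WT 28 were at least 1.5-fold lower and none higher, with a median log2 ratio of -1.98 (30.8% of all genes were lower, and 1240 of 8554 higher). In TDI-11055 over Enl-T1 16 were higher and 1 lower, with a median of 0.57 (20.9% and 10.3% of all genes), and against Enl-WT 27 stayed lower and 2 were higher, with a median of -1.27 (20.5% and 11.9%). Rhpn1 (rhophilin 1) was at 239 CPM in Enl-WT, had no UMI in Enl-T1 and was at 11.7 CPM in TDI-11055 cells. Ddn (dendrin, a nephrin-binding protein) was at 151, 0 and 39.8 CPM, and Arhgap24, a Rac-regulating GTPase activator, at 477, 11.6 and 155. Col4a3, of the mature basement membrane, was at 60.0 CPM in Enl-WT and had no UMI in podocyte-like cells of the other libraries. Among broadly made genes, the actin crosslinker Actn4 was at 444, 165 and 199 CPM, the junction gene Tjp1 at 433, 40.5 and 119, and the scaffold Iqgap1 at 314, 327 and 290. The adaptor Nck1 (48.8, 49.1 and 79.6 CPM) and Magi1 (23.5, 26.0 and 42.2), the paralogue of Magi2, were not lower in Enl-T1.

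The genes most like each member were looked for over 26 sums of UMIs by class and library, as the 3 highest Pearson correlations of log2(CPM + 10) among 10178 genes. Ddn (r = 0.995) and R3hdml were among the genes most like Ptpro, and Nphs1 most like Ankmy1 (0.94), Stac2 and Rhpn1. For Podxl the leading gene was Coro2b (0.95), followed by Slc31a2 and Tspan2, and for Thsd7a it was Synpo (0.94), followed by Tspan2 and Plekhg1. Magi2 had Ptpro among its 3 (0.97), and Synpo had Inf2, Thsd7a and Rab3b. Cd2ap had other neighbours, Ubl3, Nlk and Arf3 (0.93). Within the 7, correlations lay between 0.64 and 0.97 among the restricted members and between 0.40 and 0.49 for Cd2ap with the others. Sums needed at least 50 cells, so the only podocyte-like sum among the 26 was that of Enl-WT. For the restricted members the correlations rest largely on that sum. These sums share libraries, and most of the spread is between podocyte-like cells and the rest, so the values are a description.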

How the data were processed

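Whole E15.5 kidneys were dissociated, red cells were lysed, and single-cell libraries (10x Genomics 3′, version 3.1) were made. The authors deposited raw UMI counts per gene and barcode, made with Cell Ranger 6.1.2 on mm10 (submitters' processing notes); their read filters are not given in the sources used here. These counts were used as deposited.

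Barcodes with 1000 to 6000 genes and at most 10% mitochondrial UMIs were kept. Clustering (Seurat 5.3.0, R 4.3.3; integrated libraries, 2000 variable genes, resolution 0.5 for all cells and 0.8 for nephron cells) left out the 7 genes and the list of 35. Clusters were named from marker lists by a scoring rule set after the clusters were seen. Scrublet marked 125, 45 and 3 cells of the Enl-WT, Enl-T1 and TDI-11055 libraries, under 0.5% in the last; doublets stayed in the main values and were removed as an alternative (in TDI-11055 the 61 highest scores). Pseudotime was diffusion pseudotime (scanpy 1.11.5) on 20 components, rooted in the NP1-like cell highest for Six2 plus Cited1. UMIs were summed by class and library; with 1 library per group no test was run. Lists are described on log2(CPM + 10), for genes with a mean of at least 10 CPM. A count of 0 was given the limit of 3 UMIs. Positions are from a GENCODE annotation of GRCm38. Scripts were tested on simulated data.

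The members, the marker lists and the list of 35 genes were chosen with earlier results of these data known. Named genes are the members, the list's genes above 10 CPM, the 3 genes most like each member and the markers a class check turned on. Alternatives covered doublets, mitochondrial and gene limits, clustering, the podocyte definition, scaling, filters and bins. Some genes are not reported here.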

Additional observations from a re-analysis of the deposited data

Results flagged for a closer look

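In podocyte-like cells and in all other cells the ratio of TDI-11055 over Enl-T1 pointed in opposite directions for 6 members. It was 6.89 in podocyte-like and 0.449 in other cells for Nphs1, 13.0 and 0.227 for Ptpro, 8.10 and 0.697 for Magi2, and 21.1 and 0.245 for Synpo. With 3 UMIs put in place of the 0 in Enl-T1, it was 49.2 and 0.707 for Podxl and 21.3 and 0.231 for Thsd7a. The other cells were not the same mix in these libraries: stroma-like cells were 33.8% of kept Enl-T1 and 9.80% of kept TDI-11055 cells. Endothelial-like cells, with 282 of the 311 Podxl UMIs of Enl-T1, were 6.20% and 4.21%. Within endothelial-like cells alone Podxl was not lower after TDI-11055, whereas Thsd7a was. A ratio over all other cells therefore holds class shares and levels together. With 1 library per group the difference between the cell sets was not tested.

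Among the barcodes left out for more than 6000 genes, which entered only the setting without that limit, 9 in the Enl-WT library held at least 3 of the 6 members other than Cd2ap after thinning to 2000 UMIs. Barcodes of that kind held 16.6% of the Podxl UMIs of the Enl-WT library, 23.8% in Enl-T1 and 43.4% in TDI-11055, and 4.65%, 21.8% and 35.0% of all UMIs.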

How the results depend on the processing

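Of 213 values recomputed under other settings, 148 stayed within their counting interval (for counts, within 1.5-fold), 60 moved further and 5 changed direction. With ratios of bin 4 over bin 1 left out, 59 stayed and 28 moved. The 5 that changed direction were ratios of bin 4 over bin 1 per Ptpro UMI: with the marker gate 0.0821 for Nphs1, 0.338 for Magi2 and 0.418 for Synpo (2.43, 4.05 and 4.14 in the main setting), with the marker sum in place of pseudotime 0.721 for Nphs1, and without the upper limit on genes 1.17 for Cd2ap (0.297 in the main setting). In podocyte-like cells the counts of members past 1.5-fold (7 lower for Enl-T1 over Enl-WT, 6 higher for TDI-11055 over Enl-T1, 7 lower for TDI-11055 over Enl-WT) were the same under 8 changes of cells or scaling, and nephron resolutions 0.4 and 1.2 left the podocyte-like cells as they were. Where values moved, the cause was not tested. The podocyte-like share of Enl-WT was 7.01% at a mitochondrial limit of 5%, 3.46% without the upper limit on genes, 7.89% by the marker gate and 10.3% of nephron cells. In Enl-T1 it was 0.561% without the upper limit, 5.00% by the gate, 0.531% for cells passing both cluster and gate, and 3.40% of nephron cells; in TDI-11055 it was 3.52% by the gate and 2.16% of nephron cells.

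The members' median log2 ratio in podocyte-like cells was -3.65 for Enl-T1 over Enl-WT within pseudotime bins, and for TDI-11055 over Enl-T1 0.57 within bins and 1.04 by the gate. In the whole kidney, Enl-T1 over Enl-WT was -1.95 with median-of-ratios scaling, -2.30 when haemoglobin, ribosomal protein and mitochondrial genes were taken out of the totals, -2.70 at 5% mitochondrial UMIs, -2.74 over nephron cells and -1.90 with no filter on low genes. TDI-11055 over Enl-T1 was -0.15 without the upper limit on genes and -0.050 over nephron cells. The number of members starting before Nphs1, 3 in the main ordering, was 0 with the 5% mitochondrial limit, no upper limit on genes, members left in the clustering, nephron resolution 1.2, cells passing cluster and gate, the marker sum in place of pseudotime, or 3 bins. Without thinning, 61.2% of Enl-WT endothelial-like cells had a Podxl UMI. The combined cluster and gate, ratios per Ptpro UMI, nephron cells and the unfiltered whole-kidney lists were chosen after seeing the data. No paired analysis was possible because each group is 1 library, and for the same reason no replicate could be left out. The 44 Enl-T1 and 29 TDI-11055 podocyte-like cells limit the precision.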

Other observations

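An unnamed cluster of nephron cells led by Sst, Akap12 and Meg3, with no podocyte marker among its leading genes, held 38 Enl-WT, 216 Enl-T1 and 14 TDI-11055 cells. Podocyte-like was still its best-scoring nephron type. Of the 13 podocyte markers 10 were found in at least 10% of its cells, and their list had a mean log2 fold of -0.064. Its Enl-WT cells had the members at intermediate levels: Podxl at 268 CPM, Thsd7a at 198, Magi2 at 86.5, Synpo at 65.9, Ptpro at 61.8 and Nphs1 at 53.5 CPM, with Cd2ap at 399 CPM. After thinning, 5 of 35 of these Enl-WT cells held at least 3 of the 6 members other than Cd2ap, and 0 of 214 Enl-T1 cells did, which allows a share of up to 1.71%. In the Enl-T1 cells of the cluster Thsd7a was at 36.3 CPM, Magi2 at 14.8 and Podxl at 1.65 CPM.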
